A study of Mus musculus with 5 samples.

Results

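Single wells of a Smart-seq2 sample of mouse kidney were sorted into a class rich in Plac8 or Ly6c2 reads and a class rich in C1q reads, and the classes were compared across genes within plates. Of 768 wells on 8 plates, 473 held at least 20000 gene reads and 1000 detected genes, and 373 of these were members. The Plac8/Ly6c2 class took 29 wells with Ly6c2 plus Plac8 at 200 CPM or more (CPM, reads per 1000000 gene reads of the well) and C1qa plus C1qb plus C1qc under 200 CPM. The C1q class took 344 wells with that C1q sum at 1000 CPM or more and Ly6c2 under 20 CPM. The 100 wells in neither class were 44 with a C1q sum between 200 and 1000 CPM, 23 above 1000 CPM with Ly6c2 of 20 CPM or more, and 33 low in all 5 genes.

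All animals were C57/BL6 mice aged 8 weeks, and kidneys were digested and sorted for live cells by DAPI exclusion, with 3 mice pooled per library. The study followed a reversible unilateral ureteric obstruction (UUO), in which urine outflow of 1 kidney is blocked and later restored. The Smart-seq2 sample covers all time points, and the labels map no well to a mouse or a time point, so its wells are cells of 1 sample and carry no test. The same contrast was tested in droplet (10x 3′ V2) libraries of the same study, each a pool of mice of its own condition: sham surgery (day 0), day 2 of UUO, day 7 of UUO, and day 14 of the experiment, 7 days after reversal.

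Monocytes are blood cells that enter injured tissue and can become macrophages. Classical monocytes carry Ly6C and the chemokine receptor Ccr2, whereas patrolling monocytes carry little Ly6C, depend on the nuclear receptor Nr4a1 and crawl along vessel walls. Plac8 is a small cysteine-rich protein found in monocytes, in neutrophils and in some dendritic cells. Kidney macrophages make C1q, the recognition part of the classical complement pathway, whose A, B and C chains assemble together.

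The C1q chains lie side by side on the minus strand of chromosome 4 (GRCm38, GENCODE M21), C1qb (ENSMUSG00000036905) at chr4:136880129-136886187, C1qc (ENSMUSG00000036896) at chr4:136889804-136893065 and C1qa (ENSMUSG00000036887) at chr4:136895917-136898803. Plac8 (ENSMUSG00000029322) lies at chr5:100553725-100572245 and Ly6c2 (ENSMUSG00000022584) at chr15:75108158-75111970, both on the minus strand. To show 1 regulatory stretch from each side of the rule, the 250 bases upstream of a RefSeq start are printed 5′ to 3′ (GRCm38.p6) for C1qb, chr4:136886201-136886450, and for Ly6c2, chr15:75111972-75112221, the first of the 2 starts that the table lists for it. Capitals mark AGGAAG or its reverse complement CTTCCT, the letters at the core of many ETS-family sites.
C1qb: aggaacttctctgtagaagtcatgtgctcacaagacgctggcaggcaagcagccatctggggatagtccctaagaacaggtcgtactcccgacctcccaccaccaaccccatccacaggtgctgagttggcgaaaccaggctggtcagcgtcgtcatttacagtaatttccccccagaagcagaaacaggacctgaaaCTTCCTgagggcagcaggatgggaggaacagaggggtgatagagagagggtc
Ly6c2: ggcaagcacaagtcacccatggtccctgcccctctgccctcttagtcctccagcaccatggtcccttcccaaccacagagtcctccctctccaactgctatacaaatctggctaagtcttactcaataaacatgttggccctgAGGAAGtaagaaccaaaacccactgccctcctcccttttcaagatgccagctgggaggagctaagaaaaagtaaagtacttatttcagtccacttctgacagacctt
Each window held the letters 1 time, C1qb on the reverse and Ly6c2 on the forward strand. The same letters occurred on either strand in 29.5% of the 32851 upstream windows of this length in the table, so the match sets neither gene apart.

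The wells were chosen by their CPM of Ly6c2, Plac8, C1qa, C1qb and C1qc, and these values are given as a description, with no test. In the C1q wells C1qb ran from 0 to 69405 CPM with a median of 6145, C1qa had a median of 3212 CPM and C1qc a median of 2768 CPM, and 320 of 344 wells held each chain at 100 CPM or more. In the Plac8/Ly6c2 wells each of the 3 chains had a read in 29 of 29 wells, at medians of 22.7, 39.2 and 22.7 CPM for C1qa, C1qb and C1qc. Plac8 had a median of 1115 CPM there and reached 200 CPM in 28 of 29 wells. Ly6c2 had a median of 1.51 CPM, reached 20 CPM in 10 wells and 200 CPM in 6, so that 19 of the 29 wells qualified through Plac8 with Ly6c2 under 20 CPM. Just inside the rule the lowest Ly6c2 plus Plac8 sum was 383 CPM and just outside it the highest was 165 CPM. The highest C1q sum in a Plac8/Ly6c2 well was 178 CPM against 209 CPM in the nearest well left out, and the lowest in a C1q well was 1046 CPM against 903 CPM. Ly6c2 reached 19.9 CPM in a C1q well against 22.1 CPM in the nearest well left out.

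**Figure D1:**
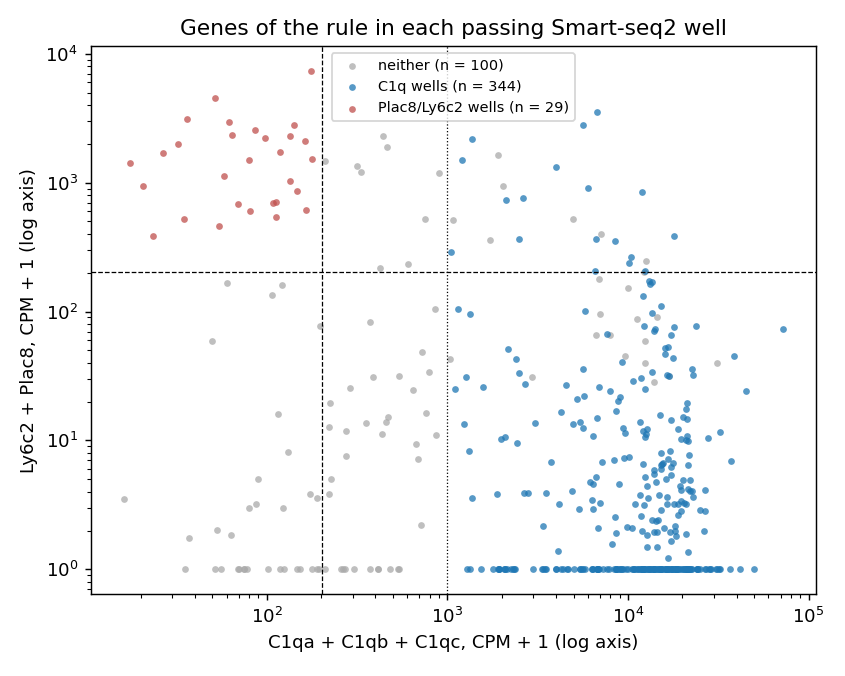
Each point is 1 of the 473 passing wells; the x axis is C1qa plus C1qb plus C1qc and the y axis Ly6c2 plus Plac8, both as CPM + 1 on log axes, with dashed lines at 200 CPM and a dotted line at 1000 CPM. The 29 Plac8/Ly6c2 wells sit at the upper left, and 18 of the 344 C1q wells also had Plac8 at 200 CPM or more.

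The name monocyte was checked against other markers and held only in part, so the class is called by its genes. Myeloid genes were present: Csf1r, the receptor for the growth factor CSF1, reached 100 CPM in 24 of 29 wells and Lyz2, the lysozyme of myeloid cells, in 26. The 20 genes listed for classical monocytes reached 100 CPM in 1 to 27 of the 29 wells, with a median of 7 wells. Among them Ifitm3 did so in 27, Ifitm6 in 18, Ccr2 in 17, F13a1 in 3, Chil3 in 2 and Ly6c1, the near-identical neighbour of Ly6c2, in 1. The 15 genes listed for patrolling monocytes did so in 2 to 21 wells, with a median of 13. Among them were Itgal (the LFA-1 alpha chain) in 21 wells, Nr4a1 in 19, Treml4 in 13, Ace (angiotensin-converting enzyme) in 12 and Fabp4 in 2. Dendritic cell genes occurred too: 10 wells held Siglech, Flt3, Cd209a or Xcr1 at 100 CPM or more. Among the 6 wells with Ly6c2 of at least 200 CPM, 2 lacked Siglech, Flt3 and Cd209a at that level. Well A2 of plate 1A held 13384 CPM of Siglech and 940 CPM of Ccr9, both known from plasmacytoid dendritic cells, beside 858 CPM of Ly6c2.

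Ace and Ccr2 divided these 29 wells. Ace alone reached 100 CPM in 8 wells, Ccr2 alone in 13, both in 4 and neither in 4. The split was made after the values were seen and gets no test. In the 8 Ace wells Nr4a1 ran from 1392 to 6992 CPM with a median of 3987, whereas in the 13 Ccr2 wells it ran from 0 to 1363 CPM with a median of 7.65. The ranges did not overlap but nearly met, and 5 of the 13 Ccr2 wells reached 100 CPM of Nr4a1. Lyz2 had a median of 22190 CPM in the Ace wells and 269 CPM in the Ccr2 wells, but a Ccr2 well reached 49724 CPM. The MHC class II chain H2-Ab1 went the other way, with a median of 244 CPM and a highest value of 3696 in the Ace wells against a median of 14238 CPM in the Ccr2 wells, though the lowest Ccr2 well held 159 CPM and the ranges overlapped. Cd209a reached 100 CPM in 0 of 8 Ace wells and 7 of 13 Ccr2 wells, up to 7594 CPM. Napsa, an aspartic protease, did not follow the split, at medians of 1290 and 1065 CPM and over 100 CPM in every well of both sets. Ccr2 itself was no mark of the class, since 214 of 344 C1q wells (62.2%) reached 100 CPM against 17 of 29 Plac8/Ly6c2 wells (58.6%). Ace at that level was found in 13 C1q wells (3.78%), and 11 of these also held Ccr2.

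**Figure D2:**
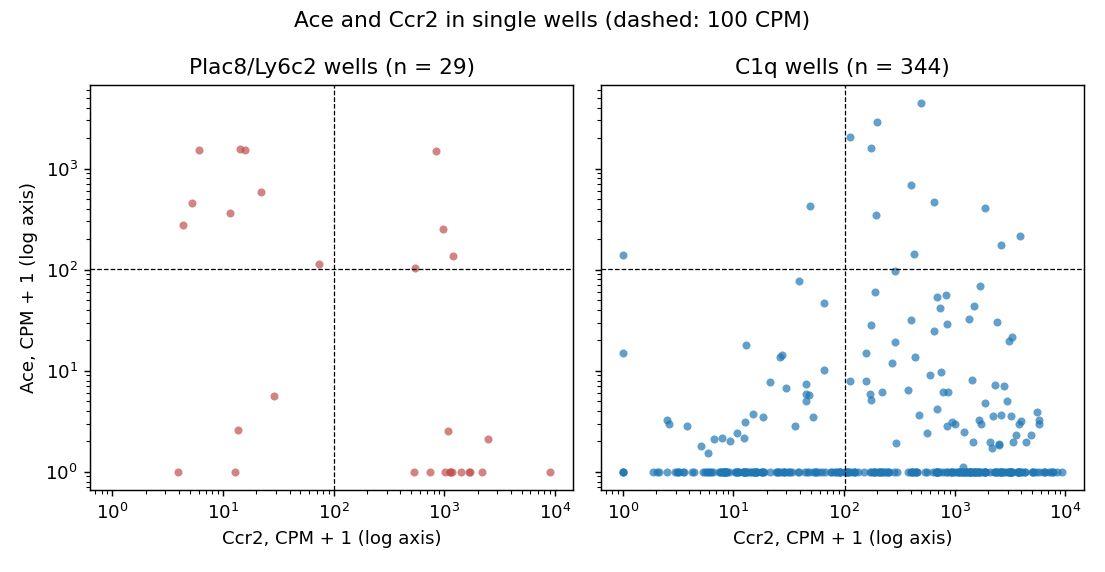
Each point is 1 well, with Ccr2 on the x axis and Ace on the y axis as CPM + 1 on log axes, Plac8/Ly6c2 wells on the left and C1q wells on the right. On the left 8 wells lie at the upper left and 13 at the lower right of the dashed lines; in the right panel 203 of 344 wells lie at the lower right.

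The name macrophage was checked in the same way. Adgre1 (F4/80) reached 100 CPM in 218 of 344 C1q wells against 7 of 29 Plac8/Ly6c2 wells, and Cx3cr1 (the fractalkine receptor) in 244 against 14. Csf1r (317 of 344 against 24 of 29) and H2-Ab1 (321 against 27) were frequent in both classes and do not tell them apart. Dendritic cell genes were present in the C1q wells too. The markers of type 2 conventional dendritic cells summed to a median of 724 CPM there against 199 CPM in Plac8/Ly6c2 wells, with 142 of 344 and 9 of 29 wells at 1000 CPM or more. Those of type 1 summed to medians of 717 and 515 CPM, with 132 and 12 wells at that level. The type 2 list includes Mgl2, called higher in C1q wells below, and the type 1 list Cadm1, which is also on the tissue macrophage list. Siglech, Flt3, Cd209a or Xcr1 went the other way. Any of these reached 100 CPM in 31 of 344 C1q wells (9.01%) against 10 of 29 Plac8/Ly6c2 wells (34.5%). The class is therefore also called by its genes. Several defining genes of lymphocytes and neutrophils had no read: 0 of 8 natural killer genes had a read in any Plac8/Ly6c2 well, and Cd3e, Cd3g, Trbc2, Ms4a1, S100a9, Ly6g and Cxcr2 had none in any member well. Other genes of these lists did have reads: the neutrophil list summed to 100 CPM or more in 62 of 344 C1q wells and 7 of 29 Plac8/Ly6c2 wells, the T cell list in 16 and 1, and 3 of 8 natural killer genes had a read in a C1q well. Genes of the proximal tubule were summed per well, with medians of 5.88 CPM in Plac8/Ly6c2 wells and 9.87 CPM in C1q wells. That sum reached 1000 CPM in 2 of 29 and 31 of 344 wells, the highest being 40930 and 58446 CPM. B cell genes summed to medians of 270 and 542 CPM, with Ms4a1 at 0 in both classes. The comparison below was repeated in 17 Plac8/Ly6c2 and 186 C1q wells kept by a filter on lymphocyte and dendritic cell markers. That choice is called the marker filter below. Before the filter, B cell genes summed to 100 CPM or more in 17 of 29 and 249 of 344 wells. Those of type 1 dendritic cells did so in 22 and 270. The kept wells were therefore not free of the genes of these lists. The part of tubule and neutrophil gene reads in the results was not tested.

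Within plates, 4 plates (2B, 3C, 4C and 7C) had at least 5 wells of each class, and they held 22 Plac8/Ly6c2 wells (5 or 6 a plate) and 220 C1q wells (35 to 64 a plate). Gene reads per well ran from 109400 to 1481824 with a median of 677296 in the former, and from 20964 to 4610751 with a median of 432144 in the latter. The plate medians of gene reads were lower in C1q wells on 4 of 4 plates, by a mean log2 ratio of -0.69. Gene reads per spike-in read, a gauge of RNA content, gave -0.74 ± 0.81 (SD over 4 plates) and were lower in C1q wells on 3 of 4. The number of genes detected was close, at medians of 3648 and 3587 genes. The 50 most read genes took a larger share of reads in C1q wells on 4 of 4 plates (medians over these wells, 38.3% against 32.4%).

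Each gene's level was averaged over the wells of a class on a plate, and the log2 ratio of C1q wells over Plac8/Ly6c2 wells was taken per plate with 1 CPM added and then averaged over the 4 plates. A gene is called here when that ratio passed 2-fold with 1 sign on all 4 plates. Of 8188 genes with a mean level of at least 10 CPM, the 5 rule genes left out, 22.9% were called: 1564 (19.1%) higher in C1q wells and 312 (3.81%) higher in Plac8/Ly6c2 wells. This split changed with how wells were chosen and summarised, and the cause was not tested. With only as many C1q wells per plate as Plac8/Ly6c2 wells, an alternative added after the data were seen, the counts were 253 and 881, and 179 of the 1564 and 222 of the 312 kept their call. Those C1q wells were the first in column order, with plate medians of 227744 to 328724 gene reads, and were shallower than all C1q wells of the plate on 3 of 4 plates. The share of calls on the C1q side was 83.4% in the main comparison and 22.3% with equal numbers, and it was 70.8% with DESeq2 size factors, 51.5% with wells pooled over plates and 28.8% when the median well stood for a class. Pooling used the wells of all plates and gave 1 ratio per gene. A call there rested on the 2-fold cut alone, with no sign rule over plates. With the marker filter the counts were 1796 and 246 (88.0% on the C1q side), and 1088 of the 1564 and 176 of the 312 kept their call. Among the 2488 genes with a read in at least 50% of the wells of a class, the counts were 341 and 224, together 22.7%, and the median log2 ratio of these genes was 0.36 against 1.27 for the 8188. Counts of the lists below are descriptions of 1 sample and are read against all genes of the same setting. With equal well numbers, 253 and 881 of 7496 genes were called, and with the median well 108 and 267 of 1875. DESeq2 factors gave 1196 and 493 of 8117, and the marker filter 1796 and 246 of 7982. Without the Plac8/Ly6c2 wells with Lyz2 under 1000 CPM, the counts were 1924 and 228 of 8025.

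Markers of tissue macrophages stood out in the C1q wells, with 18 of 22 described genes called higher, 0 called lower and a median log2 ratio of 4.07. With equal well numbers 9 of 22 were called higher and 0 lower, and with the marker filter 17 and 0. Ms4a7, a membrane protein of mature macrophages, averaged 751, 608, 623 and 425 CPM in the C1q wells of plates 2B, 3C, 4C and 7C, against 5.70, 8.32, 7.50 and 2.95 CPM in the Plac8/Ly6c2 wells. No Plac8/Ly6c2 well reached 100 CPM of Ms4a7, and 185 of 344 C1q wells did (log2 ratio 6.45 ± 0.39, SD over 4 plates). C3ar1, the receptor for the complement fragment C3a, averaged 691, 883, 803 and 635 CPM against 3.82, 20.8, 4.49 and 5.88 CPM, again with 0 of 29 Plac8/Ly6c2 wells at 100 CPM, which allows a share of up to 10.3%. The tetraspanin Cd81 averaged 1279, 1407, 1501 and 1611 CPM against 16.4, 56.2, 144 and 14.9 CPM. For these 3 genes every plate mean of the C1q wells lay above every plate mean of the Plac8/Ly6c2 wells. The share of all described genes with plate means apart in this way is not given here. Such a gap is thus a description and sets apart neither these genes nor those below. Adgre1 was less clear-cut, at a log2 ratio of 4.15 ± 1.70, because the Plac8/Ly6c2 wells of plate 3C averaged 319 CPM. The list's genes Csf1r (0.18 ± 0.56) and Cd68 (0.16 ± 0.47) changed sign between plates and were not called.

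The 10 genes with the steadiest excess in C1q wells, ranked by their smallest plate ratio, were Frmd4b, Aoah, Ms4a7, St3gal6, Ch25h, P2rx7, Cadm1, Gpr34, Slc9a9 and Fcrls, with log2 ratios of 6.03 to 6.68. Aoah deacylates bacterial lipopolysaccharide, Ch25h makes 25-hydroxycholesterol, P2rx7 is an ATP-gated channel, and Gpr34 is a lysophosphatidylserine receptor. Ms4a7 aside, they reached 100 CPM in fewer than 50% of the C1q wells: Frmd4b in 87 of 344 and Ch25h in 86, against 1 and 0 of 29 Plac8/Ly6c2 wells. When the median well stood for a class, 1 of the 10, Ms4a7, kept its call, and with equal well numbers 7 did. Cd72, a lectin-type coreceptor, was called under each of these settings and reached 100 CPM in 241 of 344 against 2 of 29 wells (log2 ratio 6.13 ± 2.02).

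Genes of uptake and degradation were divided, and most were not called. Of 18 efferocytosis and scavenger receptor genes 6 were called higher in C1q wells (Axl, Mertk, Gas6, Stab1, Mrc1 and Anxa3) and 2 higher in Plac8/Ly6c2 wells (Anxa1 and Scarb1), against 4 and 4 with equal well numbers, where the median log2 ratio of the list went from 2.22 to -0.25. Stab1 (stabilin-1) averaged 630, 964, 718 and 698 CPM against 3.97, 16.0, 24.7 and 4.36 CPM, and Mrc1 (the mannose receptor) 785, 863, 555 and 612 CPM against 4.46, 11.4, 101 and 5.70 CPM. Both sets of plate means were apart, and 1 of 29 Plac8/Ly6c2 wells reached 100 CPM for each gene. Of 30 lysosome genes 12 were called higher and 0 lower, but the list's members differed. Cathepsin D (Ctsd) had a log2 ratio of 4.39 ± 2.94 and the asparaginyl protease legumain (Lgmn) one of 1.68 ± 0.66, whereas cathepsin B (Ctsb), at 2569 to 4704 CPM in Plac8/Ly6c2 wells and 2456 to 3622 CPM in C1q wells, had one of -0.38 ± 0.46. With equal well numbers the lysosome list gave 5 higher and 2 lower (7 and 0 with DESeq2 factors), and its median ratio went from 0.75 to -0.44. In lipid handling 6 of 17 genes were called higher, among them Apoe, Trem2, Lpl and Abca1, and 2 lower, among them Lgals3, against 1 and 2 with equal well numbers, where the median ratio went from 1.25 to -1.56. Apoe, the lipid carrier apolipoprotein E, averaged 15543, 11228, 18686 and 26100 CPM in C1q wells against 8356, 1028, 2527 and 1988 CPM, with the closest approach on plate 2B.

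Of 10 MHC class II genes 4 were called higher in C1q wells, with 0 lower. The count was 4 of 10 with equal well numbers, where Cd74 took the place of H2-Oa, 5 of 10 when Plac8/Ly6c2 wells with Lyz2 under 1000 CPM were left out, 1 of 10 with DESeq2 factors and 2 of 7 with the median well. Of the 4, H2-Oa was called the opposite way in droplets. H2-Eb1 averaged 11394, 14366, 11821 and 11512 CPM against 3829, 5259, 1282 and 4602 CPM (log2 ratio 1.89 ± 0.88). H2-Aa had a log2 ratio of 1.18 ± 0.39 and H2-Ab1 one of 1.14 ± 0.85, and the Plac8/Ly6c2 wells of plate 7C averaged 21167 CPM of H2-Ab1 against 22053 CPM in C1q wells. The invariant chain Cd74, at 0.79 ± 0.67, was not called. Of 15 chemokine genes 9 were called higher and 0 lower, and apart from Cxcl16 those named next reached 100 CPM in fewer than 50% of the C1q wells. Ccl8 reached 100 CPM in 47 of 344, Ccl2 in 109, Ccl12 in 123, Pf4 in 113 and Cxcl16 in 243 C1q wells, against 0, 1, 0, 0 and 2 of 29. With equal well numbers 1 of 12 described chemokines was called higher and 1 lower, and Ccl2 (-0.48) turned negative. Among 18 cell cycle genes, 14 were called higher in C1q wells, of which 1 had a read in at least 50% of the wells of a class. With equal well numbers 1 of 10 described genes was called, with the median well 0 of 2. In droplets edgeR called 0 of 13 (3 at an unadjusted p under 0.05) and DESeq2 0. At least 3 of these genes reached 100 CPM in 103 of 344 C1q wells (29.9%) and in 4 of 29 Plac8/Ly6c2 wells (13.8%).

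**Figure D3:**
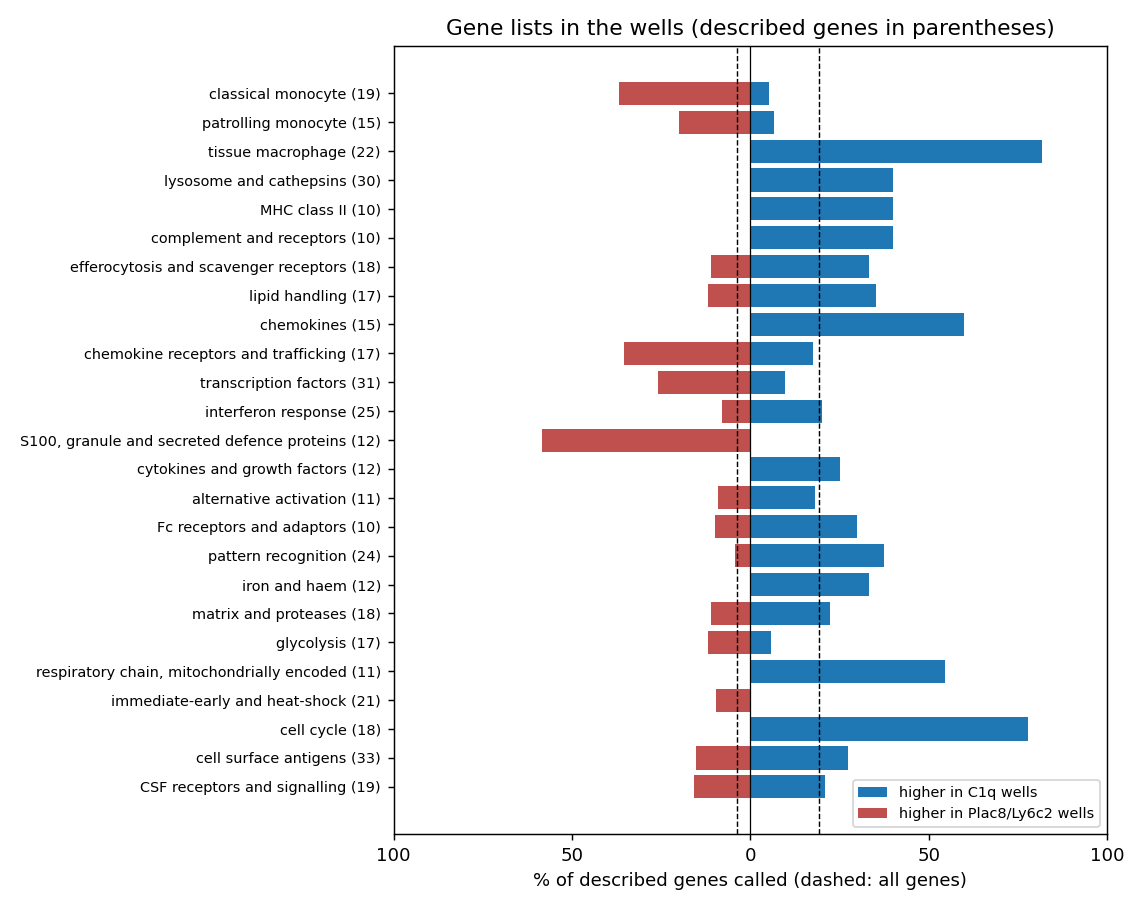
Bars give, for each gene list, the percent of its described genes called higher in C1q wells (right) or in Plac8/Ly6c2 wells (left), with the number of described genes in parentheses and dashed lines at the shares over all genes, 19.1% and 3.81%. Tissue macrophage genes (18 of 22) extend farthest right and S100 and granule genes (7 of 12) farthest left.

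On the Plac8/Ly6c2 side the 10 steadiest genes included Rasgrp2, Napsa, Plaur, Treml4, Add3, Cd300a, Chmp2b, Cytip and Anxa2, with log2 ratios of -2.87 to -5.11. Napsa averaged 889, 2084, 1358 and 2229 CPM in the Plac8/Ly6c2 wells of plates 2B, 3C, 4C and 7C, against 52.4, 146, 68.1 and 89.2 CPM in C1q wells (log2 ratio -4.20 ± 0.34). It reached 100 CPM in 27 of 29 Plac8/Ly6c2 wells and 55 of 344 C1q wells. The calcium- and phospholipid-binding protein Anxa2 averaged 1384, 1199, 1109 and 1660 CPM against 219, 161, 100 and 299 CPM. The inhibitory receptor Cd300a averaged 1497, 988, 848 and 1653 CPM against 140, 156, 115 and 249 CPM. For all 3 the plate means did not overlap, and the excess was present in most wells: Anxa2 reached 100 CPM in 26 and Cd300a in 25 of 29. With equal well numbers 10 of the 10 kept their call, and with the median well 6 did. Rasgrp2, which activates the small GTPase Rap1, had the largest ratio of the 10 (-5.11 ± 0.71) at a low level, 41.2 to 123 CPM against 0.103 to 4.09 CPM.

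**Figure D4:**
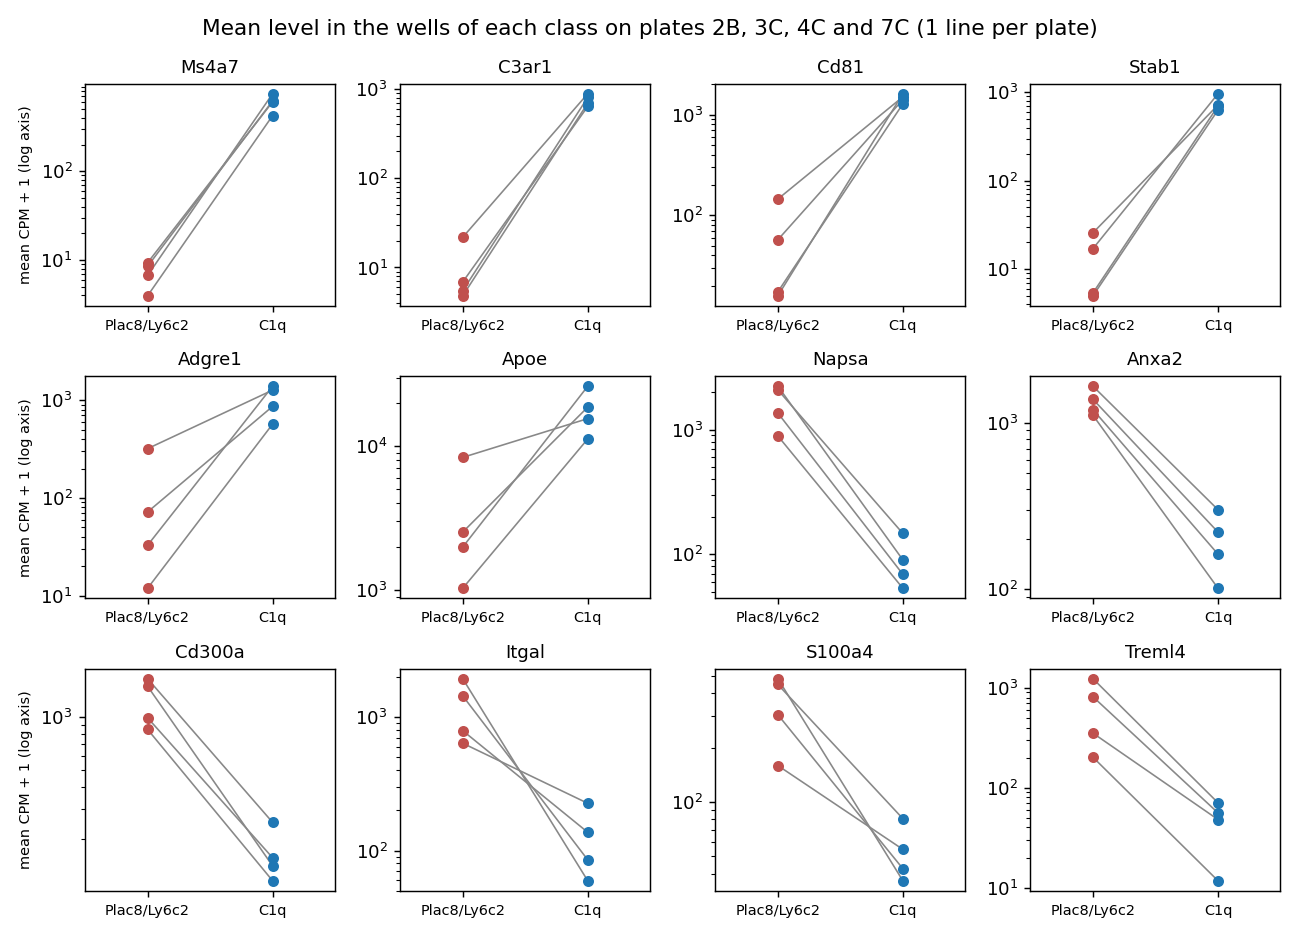
Each line joins the mean level (CPM + 1, log axis) of a gene in the Plac8/Ly6c2 wells (red) and the C1q wells (blue) of 1 of 4 plates. Ms4a7, C3ar1, Cd81, Stab1, Adgre1 and Apoe were higher in the C1q wells of each plate, and the other 6 genes in the Plac8/Ly6c2 wells; axes differ between panels.

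Genes of adhesion and movement were divided. Of 17 chemokine receptor and trafficking genes 6 were called higher in Plac8/Ly6c2 wells (among them Selplg, Itga4, Itgal, Itgb2 and Cd44) and 3 higher in C1q wells (among them Ccr1 and Cx3cr1). When well numbers were equal, 6 were higher in Plac8/Ly6c2 wells, Selplg no longer among them, and Cx3cr1 alone was higher in C1q wells, while the median log2 ratio of the list went from -0.38 to -2.98. Itgal averaged 1943, 792, 1445 and 637 CPM in Plac8/Ly6c2 wells against 58.3, 136, 84.1 and 225 CPM, and its partner Itgb2 2442, 1339, 1215 and 1703 CPM against 471, 448, 468 and 696 CPM. The means of Itgal and Itgb2 did not overlap between the classes. Selplg, the P-selectin ligand, was nearer, at 755 to 1984 CPM against 370 to 576 CPM. Ccr2 had a ratio of 0.72 ± 1.85 and changed sign between plates.

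Of 12 described S100, granule and secreted defence genes 7 were called higher in Plac8/Ly6c2 wells and 0 higher in C1q wells (median log2 ratio -1.93). S100a4 averaged 303, 480, 158 and 446 CPM against 41.7, 35.6, 53.6 and 79.8 CPM, and S100a6 408, 499, 293 and 318 CPM against 127, 62.6, 94.3 and 79.4 CPM, with no overlap. S100a10, the partner of Anxa2, and S100a11 had ratios of -1.61 ± 0.50 and -1.79 ± 0.90. With equal well numbers 7 of 12 were called the same way. Of 31 transcription factors 8 were called higher in Plac8/Ly6c2 wells (Irf5, Irf7, Irf8, Klf2, Klf4, Klf13, Bhlhe40 and Relb) and 3 higher in C1q wells (Cebpa, Maf and Runx1). When well numbers were equal, 9 of 29 were higher in Plac8/Ly6c2 wells and 1, Runx1, in C1q wells, and the median log2 ratio went from -0.15 to -1.79; Irf5, Cebpa and Maf (3.30) were not called there. Klf4, a factor needed for monocyte formation, averaged 44.5 to 210 CPM against 0.850 to 15.7 CPM (log2 ratio -3.96 ± 1.22), and reached 100 CPM in 8 of 29 wells. Irf8 had a ratio of -1.28 ± 0.97, which became 0.26 when Plac8/Ly6c2 wells with Lyz2 under 1000 CPM were left out. In the list of classical monocyte genes 7 of 19 were called higher in Plac8/Ly6c2 wells, including Ifitm3 (-1.62 ± 0.19), Hp (-5.02 ± 0.94) and Smpdl3a (-3.88 ± 1.88), and 1 higher in C1q wells (Tmem176b), against 5 and 1 of 17 with equal well numbers. In the list of patrolling monocyte genes 3 of 15 were called (Itgal, Treml4 and Gngt2), against Cx3cr1 in C1q wells (1.40 ± 1.17). The count was 7 of 15 with equal well numbers and 7 of 15 with the marker filter. DESeq2 factors gave 5 of 15 and the median well 5 of 13. Over all genes, calls higher in Plac8/Ly6c2 wells were 881 of 7496, 246 of 7982, 493 of 8117 and 267 of 1875 in these settings. Ace (-2.68 ± 3.46) and Nr4a1 (-4.21 ± 3.27) changed sign on plate 7C, whose Plac8/Ly6c2 wells averaged 42.0 and 134 CPM, and both were called with equal well numbers.

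Of 10 genes listed as markers of leukocytes and myeloid cells as a whole, 1, Aif1, was called higher in C1q wells and 0 higher in Plac8/Ly6c2 wells, with a median log2 ratio of -0.07. Aif1, an actin-binding protein, averaged 782, 346, 485 and 618 CPM against 116, 96.7, 95.3 and 101 CPM (log2 ratio 2.38 ± 0.40). None of the 10 was called with equal well numbers, and with DESeq2 factors the calls were Aif1 and, toward the Plac8/Ly6c2 wells, Ptprc (CD45). Tyrobp, the adaptor of activating receptors, averaged 1376 to 2390 CPM in Plac8/Ly6c2 wells and 1297 to 2594 CPM in C1q wells (log2 ratio -0.06 ± 0.14). Fcer1g had a ratio of 0.39 ± 0.16, Csf1r 0.18 ± 0.56 and Cd68 0.16 ± 0.47. Lyz2 averaged 30275, 14429, 5785 and 19685 CPM against 11107, 10488, 9135 and 11338 CPM and changed sign on plate 4C.

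The other 3 plates with wells of both classes (1A, 6B and 8C), with 7 Plac8/Ly6c2 wells against 106 C1q wells, did not enter these ratios. Their wells did count toward the share of wells with a read by which the steadiest genes were picked, so values there are a description and no independent check. On these plates Ms4a7 averaged 735 CPM in C1q wells and 6.49 CPM in Plac8/Ly6c2 wells, and Napsa 133 and 1134 CPM. Frmd4b (114 against 57.1 CPM, log2 ratio 0.98), Treml4 (103 against 119 CPM, -0.21) and Chmp2b (95.6 against 169 CPM, -0.82) were within 2-fold there.

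The question whether these differences recur in samples that the rule was not made on was put to the droplet libraries. The same cuts were applied to cells with at least 1000 genes, a UMI of Tyrobp and of Fcer1g and no UMI of the lymphocyte and Siglech markers. This gave 12 and 21 cells of the Plac8/Ly6c2 and C1q rules in the sham library, 163 and 180 at day 2 of UUO and 60 and 338 after reversal. The day 7 library, with 5 and 1532 cells, fell below 10 cells of a class and was left out. Plac8/Ly6c2 cells had a Ly6c2 UMI in 41.7%, 44.8% and 21.7% of cells, and the classes had median depths of 4896 against 3785 UMIs, 8434 against 11700 and 6524 against 5972, so that 1 or a few UMIs decide the rule. Libraries shared 16 to 39 cell barcodes. Of 7841 genes tested by edgeR on counts summed per library and class, with library as a block, 137 (1.75%) were higher in C1q cells and 225 (2.87%) in Plac8/Ly6c2 cells at an adjusted p under 0.05, without the rule genes. The counts varied from 74 to 127 and from 60 to 331 when 1 library was left out, the lowest being 74 without the reversed library and 60 without the day 2 library.

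Of the 1564 genes called higher in C1q wells, 1239 were tested in droplets and 91 of these (7.34%) were called the same way, which is 66.4% of the 137 droplet calls, and 8 were called the opposite way. The 1239 genes were part of the 7841 tested in droplets, of which 1.75% were called on the C1q side and 2.87% on the other. Of the 341 with a read in at least 50% of the wells of a class, 331 were tested, 79 (23.9%) were called the same way and 0 the opposite way. The share of droplet calls over all genes read that widely is not given here. The part of read level in the higher percentage was not tested. Of the 312 genes called higher in Plac8/Ly6c2 wells, 300 were tested and 27 of the 300 were called the same way, which is 27 of the 225 droplet calls, with 0 opposite. Of the 19 steadiest genes that were tested, 19 had the same sign, and the same sign was found for 67.2% of all tested C1q calls and 74.7% of all tested Plac8/Ly6c2 calls of the wells. Over all droplet genes 50.2% and 49.1% had the respective sign. Of the steadiest genes 7 of 9 on the C1q side and 4 of 10 on the Plac8/Ly6c2 side were called. With any 1 library left out, 4 and 2 kept an adjusted p under 0.05 (edgeR): Frmd4b, Aoah, Gpr34, Rasgrp2 and Cytip were not called without the reversed library, at adjusted p of 0.527, 0.74, 0.316, 0.302 and 0.12, nor without the day 2 library, where Aoah did not pass the filter on low counts.

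Ms4a7 measured 721, 208 and 1240 CPM in C1q cells of the sham, day 2 and reversed libraries against 0, 35.9 and 22.1 CPM in Plac8/Ly6c2 cells (log2 ratio 4.42 ± 0.68 SE, edgeR adjusted p = 0.00573, higher in 3 of 3 libraries). Apoe measured 8140, 4210 and 22000 CPM against 833, 1330 and 1300 CPM (3.16 ± 0.53, adjusted p = 0.0071). Cd81 had a log2 ratio of 2.16 ± 0.41 (adjusted p = 0.0124) and Cd72 one of 3.08 ± 0.50 (adjusted p = 0.0062). The chemokine Pf4 had a log2 ratio of 4.92 ± 0.39 (adjusted p = 7.83e-05), Ccl12 5.08 ± 0.68 (adjusted p = 0.0025) and Cxcl16 2.29 ± 0.29 (adjusted p = 0.00193). The scavenger receptor Stab1 and the receptor kinase Axl were higher too, at 2.72 ± 0.47 (adjusted p = 0.00887) and 3.23 ± 0.47 (adjusted p = 0.0039). Each of these 9 genes stayed under an adjusted p of 0.05 with any 1 library left out. The tissue macrophage list gave 13 of 20 tested genes higher in C1q cells and the chemokine list 9 of 16.

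On the other side Napsa measured 448, 478 and 493 CPM in Plac8/Ly6c2 cells against 120, 113 and 63.6 CPM in C1q cells (log2 ratio -2.24 ± 0.31, edgeR adjusted p = 0.00295). Anxa2 measured 1110, 797 and 435 CPM against 48.1, 342 and 118 CPM (-2.00 ± 0.45, adjusted p = 0.0279). Hp, which encodes haptoglobin, had a log2 ratio of -4.15 ± 0.49 (adjusted p = 0.00134), S100a11 -1.91 ± 0.32 (adjusted p = 0.00698) and Ifitm6 -4.17 ± 0.33 (adjusted p = 7.83e-05). These 5 genes also kept an adjusted p under 0.05 with any 1 library left out. The classical monocyte list gave 11 of 20 genes higher in Plac8/Ly6c2 cells, and these 11 include Chil3, F13a1 and Ly6c1, which reached 100 CPM in 2, 3 and 1 of the 29 wells. Genes that differed in the wells but were not called in droplets include Cd300a (-1.19 ± 0.45, adjusted p = 0.211), Itgal (-1.23 ± 0.39, adjusted p = 0.114), Treml4 (-0.90 ± 0.47, adjusted p = 0.431) and Itgb2 (-0.11 ± 0.39, adjusted p = 0.969). Among 10 MHC class II genes H2-DMb2 and H2-Oa were called, both higher in Plac8/Ly6c2 cells. The chain H2-Aa was not called and had a log2 ratio of 1.17 ± 0.45 (adjusted p = 0.215), with 17700, 2630 and 12500 CPM in C1q cells against 6630, 2770 and 3900 CPM, and thus no excess at day 2. Csf1r and Ctsb, level in the wells, were higher in C1q cells at 1.70 ± 0.36 (adjusted p = 0.0213) and 1.82 ± 0.34 (adjusted p = 0.0121), but without the reversed library their adjusted p was 0.241 and 0.14. Whether wells and droplets differ for these genes was not tested.

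**Figure D5:**
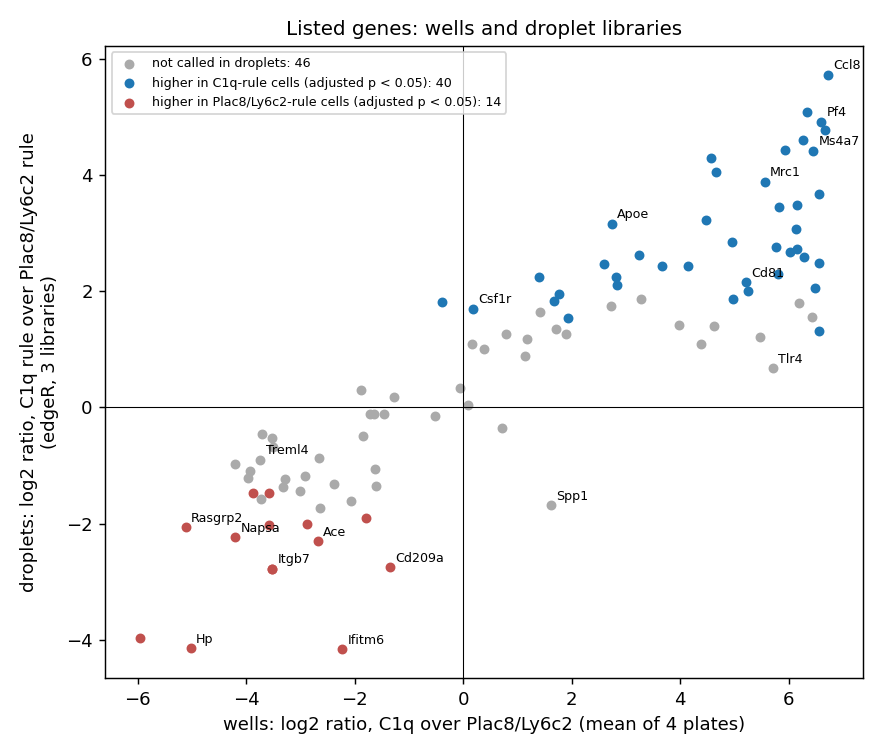
Each point is 1 of 100 genes, taken from the lists and from the steadiest genes, that were tested in droplets; the x axis is the log2 ratio in wells (mean of 4 plates) and the y axis that of edgeR over 3 droplet libraries, C1q over Plac8/Ly6c2 in both. Of these genes 40 were higher in C1q-rule cells (blue), 14 in Plac8/Ly6c2-rule cells (red) and 46 were not called (grey).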

How the data were processed

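The authors' deposited Smart-seq2 table holds gene counts per well, with 92 spike-in rows and an EGFP row that were kept out of totals, and the deposited droplet matrices hold UMI counts. Per the submitters' processing notes, Cell Ranger and STAR were used with GRCm38 and mm10; versions are not given in the sources used here. The extract protocol of the Smart-seq2 sample repeats the droplet text. Of 51912 gene IDs, 28532 had a symbol in a droplet gene table. Strand of the counting is not stated, so antisense partners could share reads. Members, lists and thresholds were chosen with earlier results of these data known. Well values were described with Python 3.11.15 and numpy 2.4.6. Droplet counts were tested with edgeR 4.0.16 (TMM, filterByExpr, quasi-likelihood, Benjamini-Hochberg over all genes tested) in R 4.3.3, with DESeq2 1.42.0 as an alternative. The code for the well ratios and for the edgeR test was tried on simulated data. Named genes were list members and, per direction, the 10 called genes with the largest smallest plate ratio, at least 50 CPM and a read in at least 50% of the wells of the higher class, leaving out rule, mitochondrial, ribosomal, unnamed and pseudogene entries. Alternatives covered scaling, filters, pseudocount, depth, stricter members, and leaving out each plate or library. Separate libraries are pools of mice of differing condition. With library as a block, p-values measure how far the difference between the classes varied from pool to pool. Doublets were not called. Counting limits for 0 wells cover counting error only. Some genes counted in the lists are not reported here.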

Additional observations from a re-analysis of the deposited data

Results flagged for a closer look

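For 8 genes the ratio pointed one way in the wells and, past the test, the other way in the droplets; the difference between the 2 kinds of data was not tested. The log2 ratio of C1q over Plac8/Ly6c2 was 1.06 in wells and -2.25 in droplets for Atp1b1, 2.06 and -2.79 for Clu, 5.00 and -2.44 for Cp, 3.73 and -2.67 for Gng11, 1.49 and -2.69 for H2-Oa, 2.89 and -2.59 for Nedd4, 3.37 and -2.52 for Pam, and 3.53 and -1.76 for Tsc22d1. In the wells none of the 8 had a read in at least 50% of the wells of a class.

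The table also holds reads of EGFP, which no label describes. At least 100 EGFP reads per 1000000 gene reads were present in 268 of 344 C1q wells and in 23 of 29 Plac8/Ly6c2 wells, with medians of 415 and 403 on that scale. The plate medians were lower in C1q wells on 4 of 4 plates, by a mean log2 ratio of -0.21 with 1 added.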

How the results depend on the processing

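In the wells the count of genes higher in C1q wells, 1564, became 108 with the median well, 2911 with no filter on levels, 253 with equal well numbers and 341 among genes with a read in at least 50% of the wells of a class; over single plates left out it ran from 1906 to 2079. The count of genes higher in Plac8/Ly6c2 wells, 312, became 267 with the median well, 493 with DESeq2 factors, 1841 with wells pooled over plates and 881 with equal numbers. With a plate left out that count ran from 447 to 565. These calls rest on unlike rules: pooled wells needed the 2-fold cut alone, and with a plate left out 1 sign was needed on 3 plates. The share of calls on the C1q side, 83.4%, fell to 70.8% with DESeq2 factors, 51.5% with pooled wells, 28.8% with the median well and 22.3% with equal numbers, and the median log2 ratio of all genes, 1.27, became 0.90, -0.06, -1.27 and -0.93. The cause was not tested, except that equal numbers use fewer wells. Among genes called in the wells Ccl2 (-0.48, equal numbers), Ccl8 (-0.40, median well) and Irf8 (0.26, Lyz2 wells) turned sign. Genes that were not called did so too, such as Cd209a (-1.34 to 1.94, Lyz2 wells) and Ccr2 (0.72 to -0.40, equal numbers). Values of 102 named genes were compared over the 17 settings that give values for single genes. Of these values 1531 moved by less than the SD over plates and 200 by more. Leaving out a plate cannot move the mean over plates by as much as that SD. Settings with a plate left out could therefore add to the 1531 but not to the 200. The 1531 is thus no measure of how stable the ratios were under those settings. A class from Ly6c2 alone with C1q under 20 CPM held 1 well and was not run. Equal numbers, the 50% restriction and the Lyz2 cut were chosen after seeing the data.

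In the droplets the counts, 137 higher in C1q cells and 225 in Plac8/Ly6c2 cells, became 98 and 129 with DESeq2, 356 and 522 with no filter, 841 and 1148 without the phagocyte restriction, and 44 and 29 with no replicate block, the pairing of classes within a library. With a library left out they ran from 74 to 127 and from 60 to 331. Of 54 named genes called, 30 were called with each library left out. The log2 ratio of gene reads per spike-in read, -0.74, ran from -1.13 to -0.53 over plates left out of the RNA content comparison and was -0.61 in wells of at least 100000 reads. With 3 libraries and as few as 12 cells of a class, genes not called are not shown to be alike.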

Other observations

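Other gene lists are read against the shares over all described genes. In the main comparison these were 19.1% higher in C1q wells and 3.81% higher in Plac8/Ly6c2 wells. With equal well numbers the calls were 253 and 881 of 7496 genes, and with the median well 108 and 267 of 1875. Of 24 pattern recognition genes 9 were called higher in C1q wells, among them the lipopolysaccharide receptors Cd14 and Tlr4, and 1, the adaptor Myd88, was higher in Plac8/Ly6c2 wells; with equal well numbers 3 of 21 were higher and 0 lower. Cd14 averaged 892, 933, 773 and 1084 CPM in the C1q wells of plates 2B, 3C, 4C and 7C against 37.0, 71.9, 93.3 and 322 CPM, with no overlap. In droplets its log2 ratio was 2.63 ± 0.41 (SE, edgeR adjusted p = 0.00577). Of 12 iron and haem genes 4 were called higher (Blvrb, Fth1, Tfrc and Trf) and 0 lower, against 2 of 10 and 0 with equal well numbers, where the median log2 ratio went from 1.79 to -0.24. The ferritin heavy chain Fth1 averaged 4005 to 6089 CPM in C1q wells against 1221 to 2033 CPM, and was not called in droplets (1.35 ± 0.38, adjusted p = 0.0757). Of 10 Fc receptor and adaptor genes 3 were higher (Fcgr1, Fcgr2b and Fcgr3) and 1 lower (Lyn), against 1 and 2 with equal well numbers.

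Of 12 cytokine and growth factor genes 3 were called higher in C1q wells and 0 lower, against 0 of 10 higher and 1 lower with equal well numbers. Tnfsf13b, the B cell survival factor BAFF, reached 100 CPM in 50 of 344 C1q wells and 0 of 29 Plac8/Ly6c2 wells, and Igf1, a growth factor, in 62 and 0. In droplets Tnfsf13b had a log2 ratio of 4.61 ± 0.60 (adjusted p = 0.00193). The lectin Mgl2 averaged 983, 606, 843 and 1176 CPM against 10.8, 8.48, 7.06 and 46.9 CPM, and its droplet ratio was 4.43 ± 0.43 (adjusted p = 0.00038). Of 17 glycolysis genes 1 was called higher and 2 lower, against 0 and 6 of 16 with equal well numbers and 0 and 5 of 10 with the median well. Of 25 interferon response genes 5 were higher and 2 lower, against 2 and 3 of 24 with equal well numbers, where the median log2 ratio went from 1.85 to -0.62, and 0 and 2 of 5 with the median well (-2.46). Of 11 mitochondrially encoded genes 6 were called higher in C1q wells. With equal well numbers 7 of 11 were, and the median log2 ratio went from 1.10 to 1.75. The count was 5 of 11 in the Lyz2 wells and 2 of 11 with DESeq2 factors. It was 0 of 8 with the median well and 0 of 11 with the marker filter. In droplets edgeR called 0 of 13, with 0 at an unadjusted p under 0.05, and DESeq2 0. The integrin chain Itgb7 changed sign between plates in the wells (log2 ratio -3.52 ± 2.60), was called higher in Plac8/Ly6c2 wells with equal well numbers (-7.07) and with the median well (-6.83), and was higher in Plac8/Ly6c2 cells in droplets (-2.78 ± 0.34, adjusted p = 0.00165).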
